A study of Mus musculus with 20 samples.

Results

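Lin28a, Lin28b, Hmga2, Igf2bp1, Igf2bp2, Igf2bp3 and the long non-coding transcript AC162302.2 belong to a circuit of RNA-binding proteins and microRNAs known for timing in embryos. These 7 genes were picked by symbol, with their levels over the stages already known, out of 37994 genes in the tables of the developmental plates and 36104 genes in the tables of the E18 side plates. Their stage levels are therefore given as a description without a test. Tests of these 7 genes were kept for contrasts that did not enter the choice. Lists of other genes, written with earlier results of these data known, were also tested between stages.

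Cells of the mouse habenula, a relay between forebrain and midbrain, were profiled in 384-well plates with Cel-seq2, which counts messenger RNA molecules by a unique molecular identifier (UMI) near the 3′ end. The developmental plates came from the line Brn3a-tauLacZ, named for Brn3a, the older name of the habenula transcription factor Pou4f1, and for a reporter. They numbered 15, with 1 plate at E12 and 2 at every other stage: embryonic E11, E13, E15 and E18, postnatal P4 and P7, and adult. The side plates came from C57BL/6 embryos at E18, with 2 plates for the left, 2 for the right and 1 for both habenulae. The labels used here do not give the reporter genotype, cell sort, sex or number of animals behind a plate, so the p-values measure the spread between plates, which may be technical. A plate, not a cell, was the replicate. Levels are counts per 1000000 counts (CPM) summed over the kept cells of a plate, and 54 to 345 kept cells per plate gave 758697 to 7760372 counts.

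The plates did not hold the same mixture of cells. Summed neuron markers (10 genes) were lowest on E18 plate 1, at 3096 CPM, where summed progenitor markers were highest at 4176 CPM; the medians of the 15 plates were 6590 and 549 CPM. On E13 plate 2, 105 of 137 cells carried at least 2 UMIs of 10 cell-cycle genes, and adult plate 1 kept 56 cells. Habenula markers, Pou4f1 among them, were found on each plate, from 447 CPM on E18 plate 1 to 2741 CPM on P4 plate 2. In sums over a plate, fewer cells of a type and less RNA per cell cannot be told apart.

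LIN28A and LIN28B bind the loop of let-7 precursors and keep them from being processed; the uridylyl transferases TUT4 and TUT7 then tail the precursor and the exonuclease DIS3L2 degrades it. Mature let-7 in turn binds 3′ untranslated regions (3′UTRs) and lowers its targets, which include the mRNAs of both LIN28 proteins, of HMGA2, a chromatin protein of proliferating embryonic cells, and of the IGF2BP proteins, which bind mRNAs and affect their stability, transport and translation. In the nervous system this circuit is known from the passage of neural progenitors from early to late programmes.

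The mature let-7 family is shown because its seed, bases 2 to 8, is what the targets pair with. RefSeq (mouse) gave 9 distinct mature sequences from 11 genes, all with the same seed, which is in capitals.
let-7a: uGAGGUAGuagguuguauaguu
let-7b: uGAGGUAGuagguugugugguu
let-7c: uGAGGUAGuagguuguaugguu
let-7d: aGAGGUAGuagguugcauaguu
let-7e: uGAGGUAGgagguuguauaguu
let-7f: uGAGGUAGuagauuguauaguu
let-7g: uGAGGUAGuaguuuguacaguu
let-7i: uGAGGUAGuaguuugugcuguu
miR-98: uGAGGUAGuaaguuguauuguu

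AC162302.2 (ENSMUSG00000116305; chromosome 15, 85653616 to 85707524, plus strand, mm10) is a processed transcript that holds the hairpins of let-7c-2 (85706603 to 85706697) and let-7b (85707319 to 85707403) in its exons. LIN28 proteins are known to bind a GGAG motif in the loop of let-7 precursors. Of 12 let-7 and miR-98 hairpins, 11 were listed with both arms, and 8 of these had GGAG between the arms. The let-7b and let-7c-2 hairpins were among the other 3, with miR-98. Both are printed beside let-7g, which has the motif (in capitals) and lies within Wdr82.
let-7b hairpin: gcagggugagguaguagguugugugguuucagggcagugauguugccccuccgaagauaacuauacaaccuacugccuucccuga
let-7c-2 hairpin: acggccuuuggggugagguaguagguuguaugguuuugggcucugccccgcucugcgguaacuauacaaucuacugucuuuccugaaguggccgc
let-7g hairpin: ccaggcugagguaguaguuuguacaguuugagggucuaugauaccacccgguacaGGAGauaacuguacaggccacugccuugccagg

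The reverse complement of the seed, CTACCTC, was searched on the mRNA strand in the longest 3′UTR of GENCODE M21. It occurred in 6 of the 6 coding members, 2 times in Lin28a, 4 times in Lin28b, 4 times in Hmga2, 4 times in Igf2bp1, 1 time in Igf2bp2 and 1 time in Igf2bp3. The same 7 letters occurred in 9.02% of 21028 coding genes, and in 20.0% of the 5377 with a 3′UTR of at least 2000 bases. A match is a description of the sequence, not a measured site. One 30-base window per gene is shown with the match in capitals, and each is the match nearest the stop codon of its gene.
Lin28a: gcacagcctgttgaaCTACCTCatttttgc
Lin28b: acccgggcgggaagtCTACCTCatgcaagc
Hmga2: gccgacattcaatttCTACCTCagcatcag
Igf2bp1: gctgtgcgaagtaaaCTACCTCaaggtgtg
Igf2bp2: acacacaaataaaagCTACCTCaggtgttt
Igf2bp3: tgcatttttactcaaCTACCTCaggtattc

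Lin28a (ENSMUSG00000050966; chromosome 4, 134003330 to 134018841, minus strand), the LIN28 paralogue best known from pluripotent cells, was highest at E11. Its level was 108 CPM on E11 plate 1 and 105 CPM on E11 plate 2, and 8.42 CPM on the E12 plate. E13 plate 1 had 5.68 CPM, and E13 plate 2 had 0 counts, which allows up to 1.59 CPM. From E15 on each developmental plate held between 0 and 2 counts, at most 0.753 CPM, and the C57BL/6 plates at E18 held at most 1.08 CPM. The E11 plates lay far above the rest, and the 6 stages after E12, put in order of mean level, did not differ from their neighbours beyond the larger SD of each pair. The summed counts were 1077 at E11, 40 at E12 and 10 at E13, so per count of the plates E11 was 12.7 times E12 (95% exact interval 9.26 to 17.9) and 39.0 times E13 (21.1 to 81.5). At P4 a single count remained on both plates together, for a ratio of 1328 (238 to 52495); these intervals cover counting error only. Lin28a overlaps Gm13061 on the other strand, and the labels used here do not say whether counting used strand, so this row and those of the other overlapping members are uncertain. At E11 0.891% and 2.13% of its counts were unspliced.

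Lin28b (ENSMUSG00000063804; chromosome 10, 45376620 to 45486395, minus strand), its paralogue, was counted on every plate into adulthood. Its level was 177 and 165 CPM at E11, 149 CPM at E12, 160 and 89.8 CPM at E13, and 129 and 117 CPM at E15. After birth it was 88.0 and 99.1 CPM at P4, 82.5 and 84.4 CPM at P7, and 75.2 and 62.3 CPM in the adult. The mean went from 171 ± 8.00 CPM (SD, n = 2 plates) at E11 to 93.6 ± 7.82 CPM at P4 and 68.7 ± 9.16 CPM in the adult, a 2.49-fold difference. The lowest plate was E18 plate 1 with 7.58 CPM, which is also the plate with the fewest neuron markers. The gene was low within its 75 Pou4f1-detected cells too, at 13.5 CPM against 60.8 CPM in those of E18 plate 2. As a whole E18 plate 2 had 59.6 CPM, and the 5 C57BL/6 plates at E18 had 59.4 to 79.3 CPM. By mean level E13 could not be ordered against E12 or E15, since it differed from each by less than its own SD of 49.4 CPM.

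The unspliced share of Lin28b was lowest at E11 and highest in the adult. Unspliced counts made up 50.1% and 47.8% of Lin28b at E11, 61.6% at E12, 60.1% and 79.9% at E13, 66.8% and 68.1% at E15, and 68.4% and 77.2% at E18. They made up 67.6% and 71.2% on the P4 plates, 71.1% and 67.1% on the P7 plates, and 89.5% and 81.8% in the adult, where the counting interval of adult plate 1 ran from 78.5% to 96.0%. The E11 plates were the lowest and the adult plates the highest, with no steady rise between, since E13 plate 2 lay above each E15, E18, P4 and P7 plate. The share in all genes of a plate stayed between 17.6% and 26.3%. In CPM of all counts, spliced Lin28b went from 87.1 ± 1.33 at E11 to 9.62 ± 2.42 in the adult (n = 2 plates each), which is 9.06-fold lower, while unspliced Lin28b went from 83.8 ± 6.66 to 59.1 ± 11.5, which is 1.42-fold lower. The spliced form therefore differed more between E11 and the adult than the total level does. No other gene of GENCODE M21 overlaps Lin28b.

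**Figure D1:**
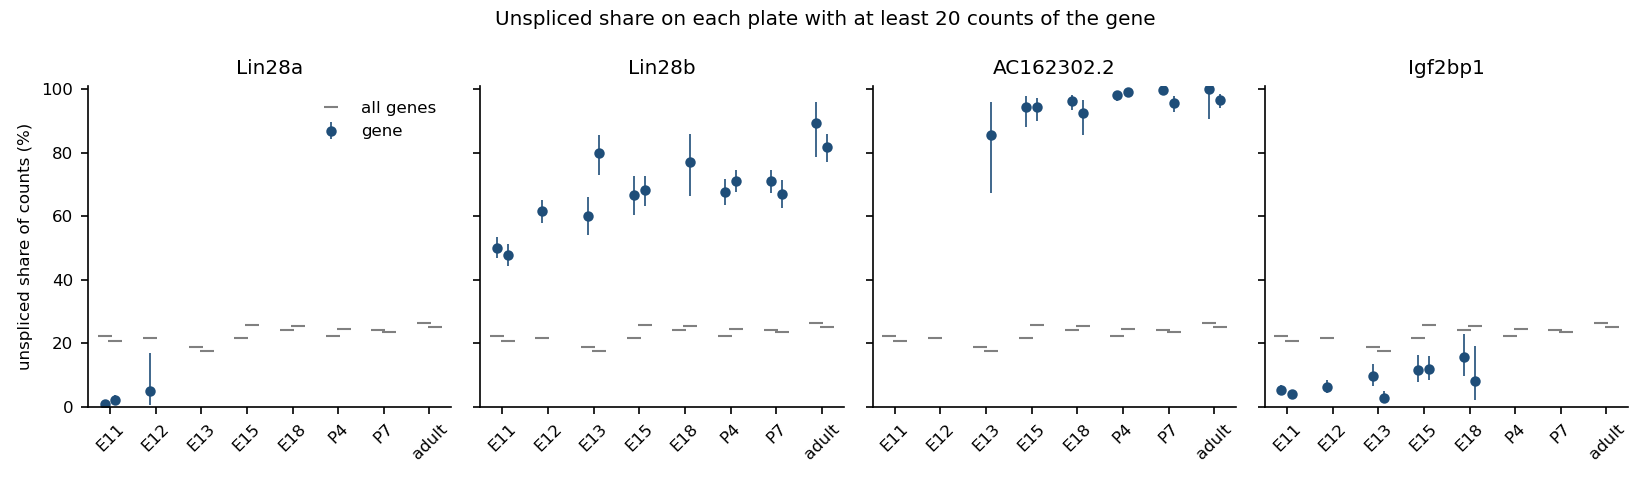
Share of unspliced counts (percent, with 95% exact intervals) of Lin28a, Lin28b, AC162302.2 and Igf2bp1 on each developmental plate with at least 20 counts of the gene; grey bars give the share over all genes of the plate. Lin28b goes from 50.1% on E11 plate 1 to 89.5% on adult plate 1, AC162302.2 lies at or above 85.7%, and the points of Igf2bp1 and Lin28a lie below the grey bars.

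AC162302.2 ran the other way. Its level was 0.386 and 0.613 CPM at E11, 2.11 CPM at E12, 5.11 and 14.9 CPM at E13, and 58.1 and 53.2 CPM at E15. It was 128 and 79.1 CPM at E18, 56.7 and 62.7 CPM at P4, 50.1 and 49.4 CPM at P7, and 50.1 and 60.3 CPM in the adult. The mean was 5.57-fold higher at E15 than at E13 and 111-fold higher than at E11, where both plates together held 5 counts (the level of the summed counts at E11 was 0.00904 of that at E15, 95% exact interval 0.00291 to 0.0213). The plates of E15, P4 and the adult could not be ordered beyond their spread. On plates with at least 20 counts, 85.7% to 100% of its counts were unspliced. Mature let-7 has no poly(A) tail, and it was not measured here. The row is uncertain, since Gm49539 overlaps it on the same strand.

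**Figure D2:**
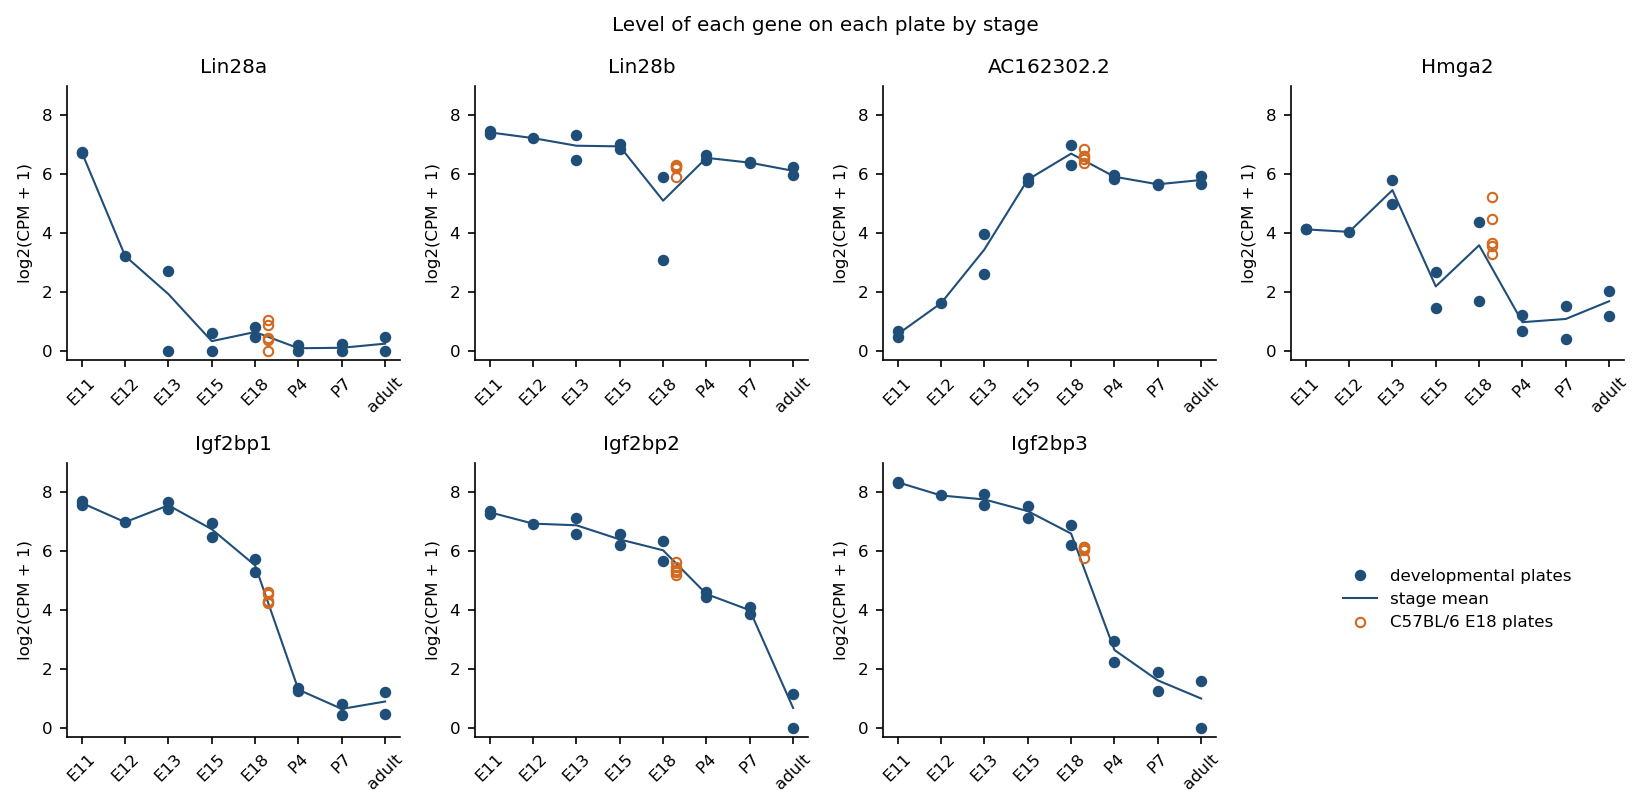
Level of each of the 7 genes, as log2(CPM + 1), on each developmental plate by stage (filled points, with a line through the stage means) and on the 5 C57BL/6 plates at E18 (open points). Lin28a is at 108 and 105 CPM on the E11 plates and at 8.42 CPM or less elsewhere, AC162302.2 climbs between E12 and E15, Igf2bp1 and Igf2bp3 are far lower at P4 than at E18, and Lin28b is still at 75.2 and 62.3 CPM on the adult plates.

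Hmga2 (ENSMUSG00000056758; chromosome 10, 120361275 to 120476469, minus strand) was a low and uneven gene in the plate sums. Its level was 16.6 CPM on both E11 plates, 15.6 CPM at E12, and 31.3 and 55.3 CPM at E13. At E15 it was 5.43 and 1.78 CPM, at E18 20.0 and 2.26 CPM, and from P4 on the plates lay between 0.352 and 3.18 CPM. The E13 plates stood highest, and E13 plate 2, the plate rich in cycling cells, highest among them. That plate also had the most ependymal and choroid plexus markers of the series (3823 CPM, against a median of 13.1 CPM over its plates), and its vascular and fibroblast markers stood at 1170 CPM against 240 CPM on E13 plate 1. Of the 2 plates of E18 the higher was plate 1, which is rich in progenitor markers; the part of the cell mixture in these stage levels was not tested. Hmga2 overlaps 1700006J14Rik and 9230105E05Rik on the other strand, and Mir763 on its own.

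The 3 Igf2bp genes had their highest stage mean at E11 and were low after birth, Igf2bp2 later than the others. Igf2bp1 (ENSMUSG00000013415; chromosome 11, 95957163 to 96005940, minus strand), which encodes an mRNA-binding protein known from the transport of beta-actin mRNA, had 187 and 207 CPM at E11, 125 CPM at E12, 171 and 201 CPM at E13, 123 and 88.6 CPM at E15, and 51.5 and 37.7 CPM at E18. After birth no developmental plate exceeded 1.53 CPM, so the mean of 44.6 ± 9.76 CPM at E18 was 30.7-fold above the 1.45 ± 0.103 CPM of P4. Igf2bp3 (ENSMUSG00000029814; chromosome 6, 49085223 to 49214957, minus strand), a paralogue known as an oncofetal protein, had 318 and 323 CPM at E11, 235 CPM at E12, 241 and 186 CPM at E13, 185 and 139 CPM at E15, and 118 and 72.4 CPM at E18. It had 6.79 and 3.68 CPM at P4, 2.71 and 1.41 CPM at P7, and 0 and 1.99 CPM in the adult, with 18.2-fold between the means of E18 and P4. Igf2bp1 at E11 and E13 could not be ordered (197 ± 14.2 and 186 ± 21.4 CPM). For both genes the step from E18 to P4 lay beyond the larger SD, and no E18 plate overlapped a P4 plate. The C57BL/6 plates at E18 were lower than both developmental ones, at 17.9 to 23.3 CPM for Igf2bp1 and 52.7 to 70.1 CPM for Igf2bp3. The folds to P4 above hold for the developmental plates only.

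Igf2bp2 (ENSMUSG00000033581; chromosome 16, 22059009 to 22163299, minus strand), the paralogue linked to metabolism in adult tissues, was still counted in the first week after birth. It had 163 and 153 CPM at E11, 121 CPM at E12, 137 and 94.5 CPM at E13, 93.9 and 71.9 CPM at E15, and 79.0 and 49.0 CPM at E18. It was still at 20.9 and 23.6 CPM at P4 and at 16.2 and 13.5 CPM at P7, and at 0 and 1.19 CPM on the adult plates, with 6 counts in all. Its mean on the developmental plates was 2.88-fold lower at P4 than at E18, against 30.7-fold for Igf2bp1 and 18.2-fold for Igf2bp3. On the C57BL/6 plates at E18 Igf2bp2 stood at 35.5 to 48.7 CPM. The summed counts per plate count were 21.5 times higher at P4 than in the adult (95% exact interval 9.76 to 59.1, counting error only). Adult plate 1, with 0 counts of Igf2bp2 and Igf2bp3, allows up to 3.95 CPM of each. Igf2bp1 overlaps Gm29202, and Igf2bp3 overlaps Malsu1 and Gm18010, all on the other strand, and Igf2bp1 overlaps Mir3063 on its own strand; Igf2bp2 overlaps no gene.

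Set side by side by stage, Lin28a was already at 8.42 CPM at E12, when AC162302.2 stood at 2.11 CPM. AC162302.2 had reached 55.6 ± 3.46 CPM at E15, when Lin28b was at 123 ± 9.02, Igf2bp1 at 106 ± 24.1, Igf2bp2 at 82.9 ± 15.6 and Igf2bp3 at 162 ± 32.3 CPM (n = 2 plates each). Hmga2 and Lin28a were low by then, at 3.61 ± 2.58 and 0.271 ± 0.384 CPM. Between E13 and E15 Hmga2 went from 43.3 ± 17.0 to 3.61 ± 2.58 CPM, while AC162302.2 went from 9.99 ± 6.90 to 55.6 ± 3.46 CPM. At P4, with AC162302.2 at 59.7 ± 4.30 CPM, Igf2bp1 and Igf2bp3 were at 1.45 ± 0.103 and 5.23 ± 2.20 CPM and Lin28b at 93.6 ± 7.82 CPM. Hmga2 was at 0.985 ± 0.526 CPM and Igf2bp2 at 22.2 ± 1.95 CPM on the P4 plates. Over the 15 plates, Pearson's r of log2(CPM + 1) with AC162302.2 was -0.91 for Lin28a, -0.63 for Lin28b, -0.61 for Hmga2, -0.60 for Igf2bp1, -0.53 for Igf2bp2 and -0.58 for Igf2bp3. These values describe plates that share stage, depth and cell mixture.

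Which cells of a plate carried the genes was asked next, with both classes of cells taken from the same plate. Cycling cells were those with at least 2 UMIs over 10 late cell-cycle genes, and 6 plates from E11 to E15 had at least 10 cells of each class. A cell with more counts reaches 2 UMIs more easily, so the classes may differ in depth. Hmga2 was higher in them on each of these plates. On E11 plate 1 it stood at 91.1 CPM in cycling and 2.75 CPM in other cells, on E11 plate 2 at 221 and 2.40 CPM, and on the E12 plate at 79.3 and 3.03 CPM. On E13 plate 1 it stood at 95.8 and 9.84 CPM, on E13 plate 2 at 62.2 and 14.6 CPM, and on E15 plate 1 at 19.6 and 3.15 CPM. The cycling class was higher on 6 of 6 plates, by 4.54 ± 0.41 on the log2 scale (SE; edgeR's quasi-likelihood test with plate as a block, Benjamini-Hochberg adjusted p 5.98e-06), and the call held in all 15 alternatives, from 3.70 to 5.38. On the later E18 plate 1, which was not in this test, Hmga2 stood at 23.0 CPM in 35 cycling cells (7 counts) and 19.5 CPM in the others, and on adult plate 2 at 1.88 and 3.53 CPM (2 and 14 counts).

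The other members showed little of this. In the same fit 2 of the 5 members tested were called, both higher, where 8.01% of 10419 genes were called and 5.37% were called higher. Igf2bp1 was the other one, 0.49 ± 0.14 higher on the log2 scale (edgeR adjusted p 0.0437), with 349 and 157 CPM in cycling and other cells of E11 plate 1, but 122 and 123 CPM on E15 plate 1; its call was lost in 10 of 15 alternatives (highest adjusted p 0.541). Igf2bp3 differed by 0.13 ± 0.11, Igf2bp2 by -0.05 ± 0.12 and Lin28b by -0.19 ± 0.10 (adjusted p 0.568, 0.878 and 0.303), none of them called. Over the 15 alternatives Lin28b ran from -1.18 to -0.00741 and was called lower in 1, while Igf2bp2 and Igf2bp3 were called in 0. Lin28a and AC162302.2 were too low for the fit; on E11 plate 1 Lin28a stood at 76.4 CPM in cycling and 114 CPM in other cells, and on E11 plate 2 at 117 and 105 CPM. Summed progenitor markers were higher in the cycling class on 6 of 6 plates (1037 to 2594 CPM against 498 to 1486 CPM). Neuron markers were higher there on 0 of 6 plates, but still stood at 5246 to 10629 CPM against 5815 to 15289 CPM. Vascular and fibroblast markers were higher there on 5 of 6 plates (9.46 to 1150 CPM against 3.93 to 1287 CPM). The part of these cell types, or of depth, in the Hmga2 difference was not tested.

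**Figure D3:**
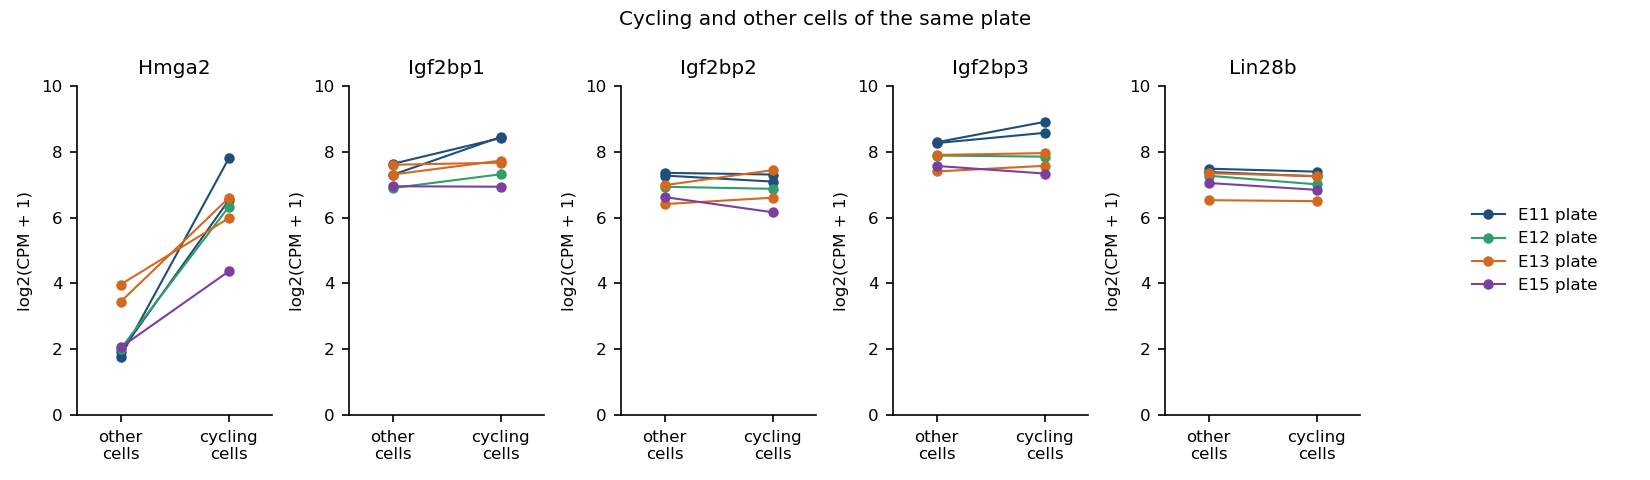
Level, as log2(CPM + 1), of Hmga2, Igf2bp1, Igf2bp2, Igf2bp3 and Lin28b in cycling cells and in the other cells of the same plate; each line is 1 of 6 plates, coloured by stage. The Hmga2 lines rise on all 6 plates, whereas those of Igf2bp2, Igf2bp3 and Lin28b stay nearly level.

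Hmga2 was held by few cells of a plate. On E11 plate 1, 29 of 309 kept cells held its 86 UMIs, 46.5% of them in 5 cells, and on E11 plate 2, 16 of 345 kept cells held 81 UMIs, 79.0% of them in 5 cells. Cells with at least 5 Hmga2 UMIs, a threshold chosen after the values were seen, numbered 8 and 4 at E11, 5 at E12, and 2 and 5 at E13, and all of these were in the cycling class. E18 plate 1 and P4 plate 1 of the same series each had 1 such cell, and neither was in the cycling class. In the 8 cells of E11 plate 1 the summed progenitor markers (Sox2, Pax6, Vim and others) stood at 4602 CPM and the neuron markers at 2022 CPM, against 656 and 15111 CPM in the 280 cells without an Hmga2 UMI. E11 plate 2 gave 5615 and 1099 CPM in its 4 cells against 771 and 14845 CPM. Pou4f1 was detected in 6 of those 8 cells and in 1 of the 4. Vascular and fibroblast markers stood at 15.0 CPM in those 8 cells and at 0 in the 4 of E11 plate 2, but at 2112 CPM in the 5 cells of the E12 plate. Of those 5 cells, 1 had more counts of these markers than of progenitor markers.

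Pou4f1 encodes a transcription factor of habenula neurons. Hmga2 was lower in the cells where it was detected. Cells with a Pou4f1 UMI were compared with the others on the 7 plates from E11 to E15. Hmga2 stood at 13.5 CPM in Pou4f1-detected and 83.1 CPM in other cells of E11 plate 1, 4.13 and 214 CPM on E11 plate 2, 11.6 and 112 CPM at E12, 27.4 and 50.7 CPM on E13 plate 1, and 11.9 and 115 CPM on E13 plate 2. It stood at 3.74 and 16.7 CPM on E15 plate 1, and at 1.89 CPM and 0 counts on E15 plate 2. Hmga2 was lower in the Pou4f1-detected class on 6 of 7 plates, by 2.95 on the log2 scale (-2.95 ± 0.49, edgeR adjusted p 0.00216), and this held in all 14 alternatives that gave a value. It was the 1 member called of 5 tested, where 13.9% of 10047 genes were called and 6.88% were called lower.

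Lin28b leaned towards the Pou4f1-detected cells at these stages without passing the test. It stood at 182 CPM in Pou4f1-detected and 70.0 CPM in other cells of E11 plate 1, at 152 and 79.9 CPM on the E12 plate, and at 118 and 50.5 CPM on E13 plate 2, but at 120 and 189 CPM on E15 plate 1. It was higher in the Pou4f1-detected class on 6 of 7 plates (0.66 ± 0.22, edgeR adjusted p 0.0672), and 5 of 15 alternatives called it, among them the one without E15 plate 1 (0.90 ± 0.18, adjusted p 0.00451). Lin28a did not pass the low-count filter over the 7 plates, so its levels are given as a description. It stood at 112 CPM in Pou4f1-detected against 21.9 CPM in other cells of E11 plate 1 (556 and 5 counts), 109 against 55.0 CPM on E11 plate 2, and 8.55 against 5.33 CPM on the E12 plate, where the other cells held 1 count. On E13 plate 1 it stood at 5.46 against 6.75 CPM (8 and 2 counts). Igf2bp1 differed by -0.60 ± 0.25 (adjusted p 0.134) over all 7 plates, and was called lower in the Pou4f1-detected cells with E11 and E12 alone (-1.11 ± 0.19, adjusted p 0.00145) and without E15 plate 2 (-0.80 ± 0.18, adjusted p 0.0149). Igf2bp2 and Igf2bp3 were not called (-0.04 ± 0.15 and -0.09 ± 0.14; adjusted p 0.903 and 0.729). The other cells were shallower, with a median of 7702 counts a cell against 16290 on E11 plate 1, and had more progenitor markers on 7 of 7 plates.

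After birth Lin28b was found chiefly in the Pou4f1-detected cells, a contrast added after the data had been seen. It stood at 90.0 CPM in Pou4f1-detected and 31.3 CPM in other cells of P4 plate 1, at 102 and 9.97 CPM on P4 plate 2, at 85.7 and 11.8 CPM on P7 plate 1, and at 87.2 and 23.9 CPM on P7 plate 2. In the adult it stood at 86.4 and 44.5 CPM on plate 1 and at 75.7 and 8.90 CPM on plate 2. The Pou4f1-detected class was higher on 6 of 6 plates, from 75.7 to 102 CPM against 8.90 to 44.5 CPM. The difference was 2.18 ± 0.32 on the log2 scale (edgeR adjusted p 0.000279), and the call held in all 12 alternatives (1.93 to 2.64). The other class of each plate held between 2 and 9 counts of Lin28b, so its levels carry a wide counting error. Lin28b may have passed the low-count filter through the Pou4f1-detected class alone. Whether this difference exceeds the earlier one was not tested.

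AC162302.2 was present in both classes after birth, on average more in the other cells. It stood at 56.8 CPM in Pou4f1-detected and 52.2 CPM in other cells of P4 plate 1, 61.6 and 99.7 CPM on P4 plate 2, 48.8 and 79.8 CPM on P7 plate 1, 48.8 and 63.6 CPM on P7 plate 2, 30.6 and 104 CPM on adult plate 1, and 48.8 and 106 CPM on adult plate 2. It was lower in the Pou4f1-detected cells on 5 of 6 plates (-0.80 ± 0.24, edgeR adjusted p 0.0234), a call lost in 5 of 12 alternatives, at most with an adjusted p of 0.301. Igf2bp2 was also called lower (-1.08 ± 0.38, adjusted p 0.0482), with 20.0 against 47.0 CPM on P4 plate 1, but the call was lost in 10 of 11 alternatives. These were 3 calls among 3 members tested, where 34.9% of 9847 genes were called, 17.0% higher and 17.8% lower. Hmga2, Igf2bp1, Igf2bp3 and Lin28a did not pass the low-count filter there. The other cells carried more oligodendrocyte markers (1639 to 26122 CPM against 34.2 to 4439 CPM), more vascular and fibroblast markers (766 to 15979 CPM against 3.48 to 130 CPM) and fewer neuron markers (1152 to 2778 CPM against 5462 to 6734 CPM) on 6 of 6 plates. They had more astrocyte markers (768 to 2666 CPM against 38.3 to 333 CPM) and progenitor markers (970 to 5627 CPM against 82.3 to 221 CPM) on 6 of 6 plates too. The same held for ependymal and choroid plexus markers (19.8 to 367 CPM against 1.80 to 9.95 CPM). The other cells were also shallower, with plate medians of 3098 to 10220 counts a cell against 14003 to 23963. The part of cell types or depth in these differences was not tested.

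**Figure D4:**
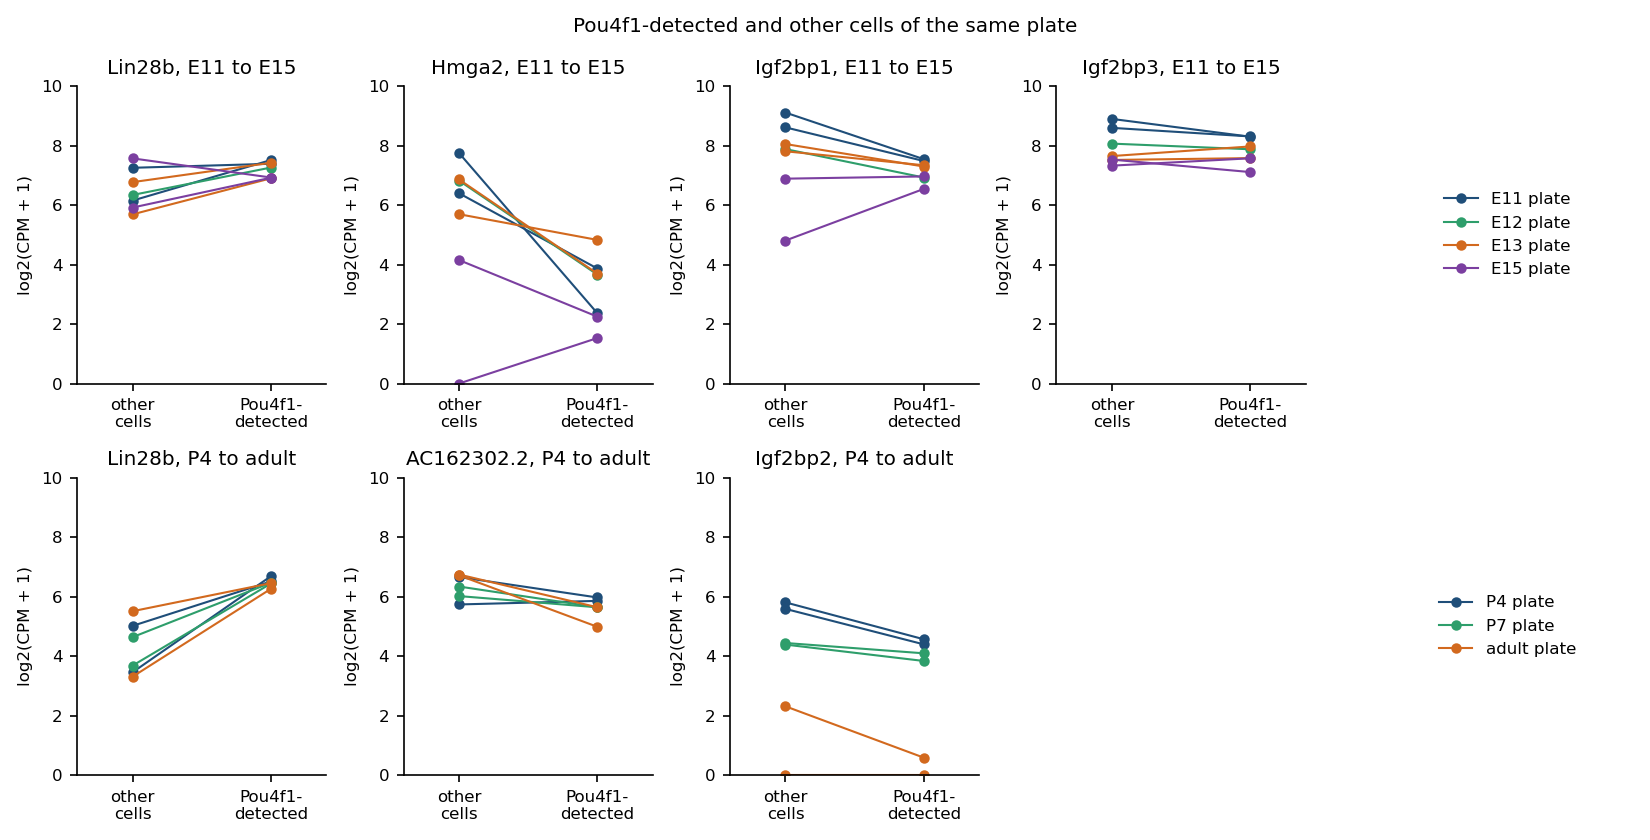
Level, as log2(CPM + 1), in Pou4f1-detected cells and in the other cells of the same plate: 7 plates from E11 to E15 in the upper row (Lin28b, Hmga2, Igf2bp1, Igf2bp3) and 6 plates from P4 to adult in the lower row (Lin28b, AC162302.2, Igf2bp2). Hmga2 lines fall on 6 of 7 early plates, and Lin28b lines rise on 6 of 6 late plates, from 8.90 to 44.5 CPM up to 75.7 to 102 CPM.

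The side plates gave a second look at E18 in C57BL/6 embryos, and asked whether the left and right habenulae differ. Hmga2 stood at 37.0 and 21.7 CPM on the left plates, 11.0 and 11.8 CPM on the right plates and 8.96 CPM on the plate of both sides, whose title does not read E18 although its other labels do. In total counts the 2 left plates lay above the 3 others. In spliced counts per 1000000 spliced counts Hmga2 stood at 33.2 and 2.28 on the left, 3.51 and 4.09 on the right and 3.13 on the plate of both sides, so left plate 2 was then the lowest. Erythroid markers were also higher on the left plates: in cells without an Hmga2 UMI they stood at 15640 and 18666 CPM on the left, 3338 and 263 CPM on the right and 23.9 CPM on the plate of both sides, and their part in the Hmga2 difference was not tested. The left-right difference in total counts was 1.42 ± 0.32 on the log2 scale (edgeR p 0.00115, Benjamini-Hochberg adjusted p 1.00), and was not called. Of 15489 genes 0 were called (0.0%), 182 had an unadjusted p under 0.05, and DESeq2 called 1. Left plate 1 decides much of the value: 93 of its 283 cells held Hmga2, against 25 of 279 on right plate 1. Without left plate 1 the difference was 0.93 ± 0.41, while without left plate 2 it was 1.70 ± 0.32. In either fit 1 left plate remained, and it was assumed to vary like the right plates. Hmga2 was called in 2 of 11 alternatives, the fit without left plate 2 among them. Of the Hmga2 counts, 30.6% were unspliced on left plate 1, 92.5% on left plate 2, and 75.4% and 73.1% on the right plates, so left plate 1 differed from the 3 others in this too. Of its 8 cells with at least 5 Hmga2 UMIs, 2 were in the cycling class and 5 had a Pou4f1 UMI. Oligodendrocyte markers, which include genes of their precursors, stood at 3767 CPM in those 8 cells against 170 CPM in cells without Hmga2. In the 2 such cells of left plate 2, right plate 1 and right plate 2 they stood at 8294, 8187 and 6678 CPM against 206, 179 and 215 CPM, while the 1 such cell of the plate of both sides had 47.2 CPM against 258 CPM. The part of these cells in the left-right difference was not tested.

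The other members tested were not called either. Lin28b stood at 77.9 and 73.0 CPM on the left and 79.3 and 59.4 CPM on the right, and AC162302.2 at 97.7 and 97.4 CPM on the left and 91.1 and 116 CPM on the right. Igf2bp3 stood at 52.7 and 69.8 CPM on the left and 70.1 and 67.5 CPM on the right. Their log2 differences, left minus right, were 0.14 ± 0.21, -0.06 ± 0.19 and -0.17 ± 0.21, with 0.20 ± 0.23 for Igf2bp2 and 0.10 ± 0.29 for Igf2bp1, and each had an edgeR adjusted p of 1.00. Lin28a held 0 to 5 counts a plate and was not tested.

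**Figure D5:**
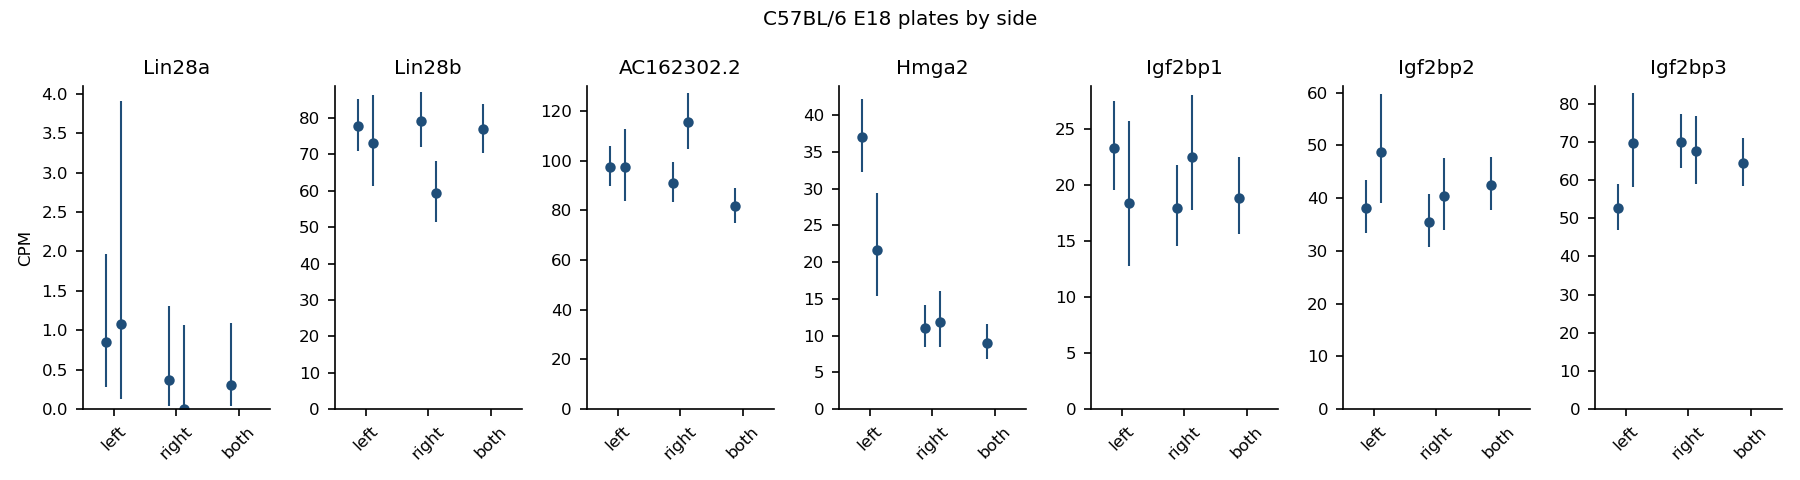
Level in CPM of each of the 7 genes on the C57BL/6 plates at E18, 2 left, 2 right and 1 of both sides, with 95% exact Poisson intervals (counting error only), in total counts. Hmga2 is at 37.0 and 21.7 CPM on the left plates and between 8.96 and 11.8 CPM on the others; the left and right plates of Igf2bp1, Igf2bp2 and AC162302.2 overlap.

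Genes listed as let-7 targets in other settings were counted beside the members. This list and those below were written with earlier results of these data known, so the counts are a description and not independent support. From E11 to P4, 16 of 32 listed targets fell, 1 rose and 15 did not pass, with a median log2 change of -1.29, where 11.1% of 17453 genes fell, 13.2% rose and the median of all genes was 0.02. Trim71, a ubiquitin ligase and one of the oldest known let-7 targets, went from 62.4 ± 0.218 to 0.493 ± 0.263 CPM (-6.85 ± 0.82, edgeR adjusted p 0.000268). Hic2, a transcriptional repressor (-3.28 ± 0.36), Igdcc3, a cell surface protein (-3.14 ± 0.30), and Arid3b, a DNA-binding protein (-3.08 ± 0.42), fell too. Cdk6, a cell-cycle kinase, rose from 11.2 to 80.2 CPM (2.91 ± 0.76, adjusted p 0.0177). In cells without an Hmga2 UMI, summed neuron markers stood at 15111 and 14845 CPM on the E11 plates and 6583 and 6601 CPM on the P4 plates. Progenitor markers stood at 656 and 771 CPM against 370 and 320 CPM, and medial habenula markers at 242 and 209 CPM against 2553 and 2524 CPM. These marker sums cover 280 of 309 and 329 of 345 kept cells at E11, whereas the target counts used all kept cells. Left out were cells with at least 5 Hmga2 UMIs, whose progenitor markers stood at 4602 and 5615 CPM on the E11 plates, so the sums understate progenitor markers there. The part of the cell mixture in this step was not tested. The seed match occurred in the 3′UTR of 23 of the 32; of these 14 fell and 0 rose, and of the 9 without it 2 fell and Cdk6 rose. The count of falls lay between 12 and 20 when single plates were left out.

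The steps in between moved fewer. From E11 to E13, 3 of the 32 fell and 0 rose (0.596% of all genes fell and 0.854% rose), Igdcc3 (-2.15 ± 0.30, edgeR adjusted p 0.00627), the nuclear receptor gene Nr6a1 (-1.54 ± 0.30, adjusted p 0.0311) and Arid3a (-1.37 ± 0.24, adjusted p 0.0239), all with the seed match. Without E11 plate 1, E11 plate 2 or E13 plate 2 the count was 0, without either P7 plate 1, and without E13 plate 1, E18 plate 1 or E18 plate 2 it was 6, 7 and 6. From E13 to E15, when AC162302.2 climbed, 0 of 32 were called in either direction (edgeR; 0.0917% of all genes were called, 0.0516% higher and 0.0401% lower), against 3 lower by DESeq2 and 2 without E13 plate 1 or either E18 plate. From P4 to the adult 8 of 32 fell and 1 rose (10.4% of all genes were called, 5.45% lower and 4.94% higher), among them Tgfbr1, a receptor of TGF-beta signalling (-1.88 ± 0.28), and Mycn, a transcription factor of growth (-1.89 ± 0.46), and the retrotransposon-derived Peg10 rose from 2.41 to 42.9 CPM (3.97 ± 0.46). Leaving out P4 plate 1, P4 plate 2 or adult plate 1 brought the falls to 3. Summed oligodendrocyte markers went from 118 and 98.8 CPM on the P4 plates to 10226 and 2875 CPM on the adult plates, and summed astrocyte markers from 80.8 and 62.4 CPM to 956 and 519.6 CPM; their part in this step was not tested.

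Genes of microRNA processing were counted as well. Of 24 listed, 4 fell from E11 to P4 (Trim71, Dicer1, Ago1 and Hnrnpa1, the last 3 named after their values were seen) and 0 rose, with a median of -0.15, where 11.1% of all genes fell and 13.2% rose. Trim71 and Dicer1 are also on the list of let-7 targets, so their falls are counted in both lists. Zcchc11 (Tut4), Zcchc6 (Tut7) and Dis3l2, the partners of LIN28 in let-7 decay, were not called in any of the 4 stage steps. Of 15 RNA-binding partners and cargo of these proteins, Msi2, which encodes a neural RNA-binding protein, rose from E11 to P4 (652 to 1790 CPM; 1.53 ± 0.40, edgeR adjusted p 0.0188) and 5 fell, beside the same shares of all genes. From P4 to the adult 6 of the 15 fell, where 5.45% of all genes fell, led by Ybx1, a cold-shock-domain protein like the LIN28 proteins (-2.52 ± 0.25, adjusted p 0.000572).

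Within plates, 5 of 29 listed targets were higher in cycling cells and 0 lower, where 5.37% of 10419 genes were higher and 2.64% lower. Cycling cells had higher Ccnd1 (3.16 ± 0.47), Cdk6 (2.12 ± 0.40) and Ccnd2 (1.85 ± 0.33), all cell-cycle genes with 0 matches in the 3′UTR searched, and Prtg, which has 2 (1.75 ± 0.28). The class was itself defined by cell-cycle genes, so the count of listed targets higher in it is not independent of how the cells were chosen. In Pou4f1-detected cells from E11 to E15, 6 of 29 listed targets were lower and 2 higher, where 6.88% of 10047 genes were lower and 7.0% higher. Mycn (0.87 ± 0.26, edgeR adjusted p 0.0379) and Arid3b (0.59 ± 0.18, adjusted p 0.0468) were the higher ones. For each of them the call was lost in 8 of 15 alternatives. Ccnd2 (-2.19 ± 0.21), Ccnd1 (-2.12 ± 0.37) and Prtg (-2.11 ± 0.48) were lower, as was Igf2, the growth factor mRNA after which the IGF2BP proteins are named (-2.76 ± 0.63, edgeR adjusted p 0.0129). Vascular and fibroblast markers were also lower in the Pou4f1-detected cells on 7 of 7 plates (2.83 to 943 CPM against 10.8 to 1483 CPM), and microglia markers on 6 of 7 (4.37 to 48.6 CPM against 16.4 to 1223 CPM). Ependymal and choroid plexus markers were higher in the Pou4f1-detected cells on only 1 of 7 plates (1.30 to 2474 CPM against 0 to 5679 CPM). The part of these cell types in the differences was not tested. Elavl4, a neuronal RNA-binding protein, was higher there (0.93 ± 0.17). In Pou4f1-detected cells after birth, 6 of 22 listed targets were lower and 3 higher, where 17.8% of 9847 genes were lower and 17.0% higher. Igf2 (-5.88 ± 1.25), Ccnd2 (-4.44 ± 0.56) and Ccnd1 (-3.93 ± 0.67) were lower again, while Elavl4 (2.01 ± 0.21), Adar, Pbx3 and Msi2 were higher.

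By likeness over the 15 plates, among 12736 genes with at least 10 CPM on at least 2 of them, the members had different nearest genes. Those with the highest r of log2(CPM + 1) to Lin28a were Gm12082 (0.97), Crabp1 (0.96) and Palm3 (0.96). Those of Lin28b were Pak1, Cyfip2 and Ank2 (0.90 to 0.91), genes of neuronal actin and membrane scaffolds. Those of Hmga2 were Nr2f2, Zfp503 and Ncapg (0.95 to 0.96), the last a condensin subunit of mitosis. Igf2bp1 was closest to Cdkn1c (0.99), Stmn1 and Traf4, with Igf2bp3 at rank 6 (0.98), Igf2bp3 to Skida1, Sox11 and Epb41 (0.98 to 0.99), and Igf2bp2 to Smarce1, Pbrm1 and Ypel1 (0.98). AC162302.2 was closest to AC162302.1 (0.99), and then to Wwc1 and Pcca (0.98 and 0.96).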

How the data were processed

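Cel-seq2 libraries of 20 plates were deposited as tables of expected counts per gene and well, which the authors had corrected for UMI collisions; inverting that correction with 4096 possible UMIs of 6 bases gave whole numbers for 100% of values (within 1e-06), and 46.1% and 43.8% were whole as deposited. Per the submitters' processing notes STAR 2.5.3a, Trim Galore and mm10 were used; neither the strand setting nor the sequencing batches are given in the labels used here. Separate tables hold spliced and unspliced counts.

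Wells were kept from 1000 UMIs (without spike-ins and mitochondrial counts), from 500 genes and up to 20% mitochondrial counts, leaving 3729 and 1082 cells; no doublet caller was run, and cells above 3 times the plate median were left out as an alternative. Of 384 well names, 380 occur on all 20 plates; they name positions and not shared cells. Counts were summed per plate or per class within a plate, rounded, and tested with edgeR 4.0.16 (filterByExpr, TMM, quasi-likelihood test, two-sided, Benjamini-Hochberg adjusted p under 0.05; R 4.3.3), with plate as a block within plates; the stage fit used the 14 plates of stages with 2 plates. DESeq2 1.42.0, other filters and scalings, and leaving out plates were alternatives. Classes of cells needed at least 10 cells on a plate. Intervals are 95% exact and cover counting error only. Errors after ± are SD for levels and SE for log2 differences. Tests were also run on counts simulated from a single mean per gene, with known changes added. That simulation had no plate or cell-mixture effects, so it does not show how the tests behave on these plates.

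Members and lists were chosen with earlier results of these data known. Named list genes are at most 4 per direction and contrast, those with the largest change among those called, and 3 genes per member by likeness. One gene that this rule names is not reported here. The lists held 32 other let-7 targets, 24 genes of the miRNA pathway, 15 RNA-binding partners and 9 let-7 host transcripts, 7 of them in the table. Coordinates and 3′UTRs come from GENCODE M21, which holds 37938 of 37994 and 36050 of 36104 gene IDs; AC162302.2 was matched by its ID. The tables of the side plates were handled apart from the developmental ones, and levels were not tested across the sets.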

Additional observations from a re-analysis of the deposited data

How the results depend on the processing

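Direction was compared over the alternatives for the members within plates and between sides, and for the named list genes. Among these, no called difference changed direction in an alternative that gave an adjusted p. Differences that were not called could cross 0, as Igf2bp2 did between Pou4f1-detected and other cells (-0.22 to 0.14). The count of genes called moved most. For E11 to E13 it was 253, against 932 by DESeq2, 1715 with no filter on low counts and 28 to 1078 with single plates left out. For E13 to E15 it was 16, against 445 by DESeq2, 1249 with no filter, 4 with the replicate block, 0 with only the plates of the 2 stages and 1 to 350 with plates left out. For E11 to P4 it was 4244, against 8777 with only the 2 stages and 1535 to 5721; for P4 to adult it was 1813, against 2827 with no filter and 206 to 2974. Left against right called 0 genes, against 1 by DESeq2, 37 with no filter, 6 with the replicate block and 18 to 39 with plates left out. Cycling cells gave 835, against 1504 with no filter, 237 with no replicate block, 1580 with E11 and E12 only, 172 with cycling from 1 UMI, 2084 from 5 UMIs and 353 to 1064. Pou4f1-detected cells gave 1394, against 2653 with no filter, 350 with no replicate block and 790 to 1702; after birth 3434, against 6075 with no filter and 2560 to 4670. Other let-7 targets lower from E11 to E13 were 3, against 6 by DESeq2, 6 with no filter, 6 without cells above 3 times the plate median and 0 to 7. From E13 to E15 they were 0, against 3 by DESeq2, 6 with no filter and 0 to 2; from E11 to P4 16, against 25 with only the 2 stages and 12 to 20; from P4 to adult 8, against 5 without the high cells and 3 to 9. The cause of these shifts was not tested.

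Replicate numbers were not taken to pair plates: of 21 pairs of stages, 4 had deviations correlated over 0.1 and 4 below -0.1 (-0.334 to 0.221), and left and right plates gave 0.227, a single pair of groups of 2, where the labels tie no plates together; the block values above therefore rest on shared numbers. With the block, Hmga2 differed by 1.39 between left and right (adjusted p 0.383).

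Of 77 levels by gene and group, 73 moved by less than the spread between plates with all wells, 76 with cells of at least 2000 UMIs and 34 with spliced counts only. For groups of 1 plate, which have no such spread, a width taken from the counting interval was used instead. Stages have 1 or 2 plates, adult plate 1 has 758697 counts, and a level under about 3 counts cannot be told from 0 on a plate.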

Other observations

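The other let-7 host transcripts are given by stage. Huwe1, a ubiquitin ligase gene that holds let-7f-2 and miR-98, stood at 274 ± 2.09 CPM at E11, 268 ± 16.2 CPM at E15 and 275 ± 58.8 CPM in the adult. Wdr82, which holds let-7g, stood at 87.9 ± 5.72 CPM at E11, 110 ± 13.8 CPM at E15 and 47.1 ± 18.1 CPM in the adult. From E11 to P4, 1 of 7 host transcripts was called, where 24.3% of all genes were: 3110039I08Rik, which holds let-7a-2 and is named here after its values were seen. It stood at 321 ± 253 CPM at E18 (499.7 and 142 CPM on the plates), and went from 124 ± 1.31 at E11 to 32.8 ± 2.00 CPM at P4 (-1.84 ± 0.53, edgeR adjusted p 0.0261).

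Mir99ahg, the host of let-7c-1, was higher in cycling cells (0.99 ± 0.21, edgeR adjusted p 0.0103), and after birth lower in Pou4f1-detected cells (-3.72 ± 0.30, adjusted p 6.06e-06). In that comparison after birth 34.9% of all genes were called, and of 5 host transcripts tested 2 were lower and 1 higher: 3110039I08Rik was lower as well (-2.45 ± 0.35, adjusted p 0.000215), and Wdr82 was higher (0.58 ± 0.20, adjusted p 0.0388). Mir99ahg stood at 126 ± 28.7 CPM at E11 and at 585 ± 664 CPM at E18. On E18 plate 1 it stood at 1054 CPM and on E18 plate 2 at 115 CPM. For Mir99ahg and 3110039I08Rik the high mean at E18 rests on E18 plate 1, and the SD there does not let E18 be ordered against E13 or E15.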
